A study of Drosophila melanogaster with 6 samples.

Results

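Short genes are described here by the m6A-CLIP peaks that fall inside them. A peak was taken when its midpoint lay in exactly 1 protein-coding gene span of the RefSeq annotation of Release 6 (dm6) and that span, from the start to the end of the gene with introns, was shorter than 2000 bp. In all, 2807 of the 28206 peaks of the 3 deposited lists met this rule. These were 1365 of 14329 peaks in list 1, 643 of 7232 in list 2 and 799 of 6645 in list 3. They fell in 583, 291 and 337 genes in lists 1, 2 and 3, and in 639 different genes over all lists. Peaks with the midpoint in 1 longer protein-coding span, of 2000 bp or more, served as the comparison and numbered 11377, 5381 and 4731.

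The study mapped N6-methyladenosine (m6A), a methyl mark on adenosines of messenger RNA, in fruit fly heads. It holds 3 m6A-CLIP libraries, in which fragmented poly(A) RNA was crosslinked by ultraviolet light to an antibody against m6A and recovered with it, and 3 input libraries. All 6 came from heads of male and female flies of the genotype w1118cs kept on a standard diet, with about 800 pooled heads and 20 µg of RNA behind each biological replicate. No group differed in genotype, diet or treatment, so the only comparison in the design is CLIP with input, and each peak list belongs to the CLIP and the input library of 1 replicate number.

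In flies m6A is written on nascent RNA by the Mettl3 and Mettl14 methyltransferase complex, and it is bound by the reader proteins Ythdc1 in the nucleus and Ythdf in the cytoplasm. The pathway is known in this animal for its role in sex determination through splicing and in the nervous system. Genes of compact span include many that nearly every cell transcribes strongly, such as those for ribosomal proteins, and others that mark single cell types of the head, such as opsins and odorant binding proteins.

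For each peak the lists give a signal, which its values show to be CLIP reads averaged over bins of 50 bp, and the natural log of input reads in such bins. All read numbers at peaks are per bin. Neither column is scaled to library size, and library totals are not in the lists, so the depth of the libraries is unknown. The median of the log2 ratio of CLIP to input reads over all peaks was 0.17 in list 1, 1.58 in list 2 and -0.42 in list 3, and ratios are therefore also given less the median of their list. The labels name neurons as the cell type, while whole heads were used. Of the marker genes of other tissues, 7 of 7 for photoreceptors, 4 of 7 for fat body, 4 of 6 for muscle, 2 of 4 for hemocytes and 0 of 4 for cuticle and epidermis had a peak in every list, beside 10 of 11 for neurons and 4 of 6 for glia. Among the markers with no peak were moody and Mdr65 of glia, fit and to of fat body, TpnC4 of muscle, NimC1 of hemocytes and resilin of cuticle. Over all protein-coding genes 13.5% had a peak in every list, and the share was 59.8% in genes of 20000 bp or more. The markers were not matched for span, so these counts do not compare tissues. In a mixture of this kind, fewer cells of a type and less RNA per cell cannot be told apart.

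Few short genes had a peak. Of 12059 protein-coding genes with at least 1 position that no other such gene covers, 5360 were short and 6699 were longer, and 1156 more short spans had no position of their own and could hold no member. A peak was found in 10.9%, 5.43% and 6.29% of the short genes and in 40.1%, 27.2% and 24.9% of the longer genes in lists 1, 2 and 3. The share over all genes was 27.1%, 17.5% and 16.7%, so the short genes lay below it in each list. The mean was 7.53 ± 2.93% in short genes and 30.8 ± 8.18% in longer genes (SD, n = 3 lists), a difference of -23.2 ± 5.43 percentage points. The exact two-sided sign-flip permutation test over the 3 lists gave p = 0.25. That is the smallest p that 3 lists allow, so no comparison of the 2 classes here can pass 0.05. A shorter span also offers fewer bins in which a peak can lie, so the classes differ in part by construction.

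**Figure D1:**
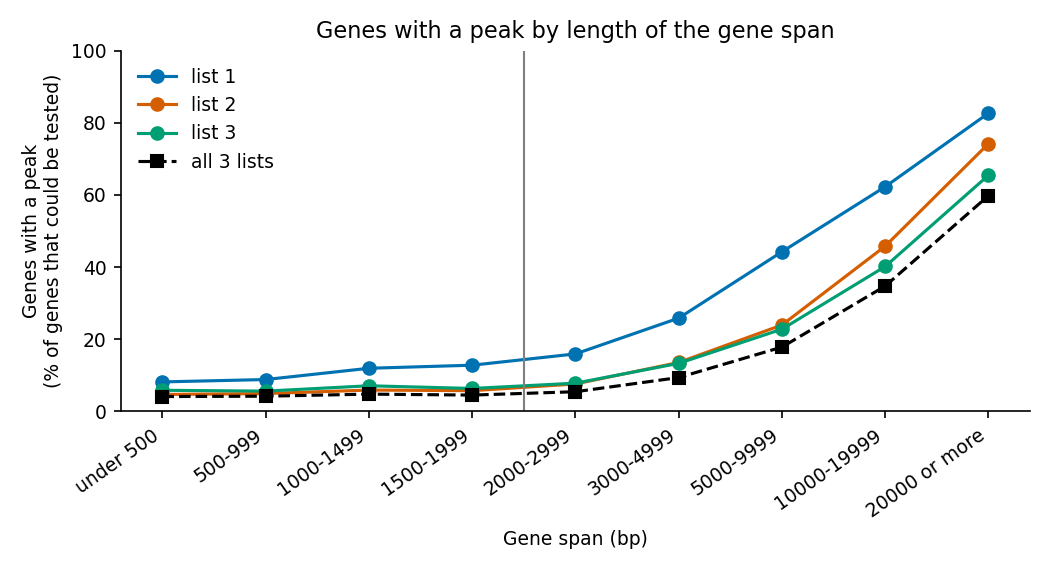
Share of genes with a peak (vertical axis, percent of the genes that could be tested) by length of the gene span (horizontal axis, bp), with 1 line for each list, a dashed line for genes with a peak in all 3 lists, and a vertical line at the limit of 2000 bp. The share in all 3 lists was 4.07% below 500 bp, 4.48% from 1500 to under 2000 bp, 5.41% from 2000 to under 3000 bp and 59.8% at 20000 bp or more.

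The plot of genes with a peak by span shows no step at 2000 bp. A peak in all 3 lists was found in 14 of 344 genes under 500 bp, in 74 of 1774 genes from 500 to under 1000 bp, in 84 of 1770 genes from 1000 to under 1500 bp and in 66 of 1472 genes from 1500 to under 2000 bp. Below the limit the share thus lay between 4.07% and 4.75%, and above it the share was larger in each longer class. Just inside the limit, from 1900 to under 2000 bp, 16 of 275 genes had a peak in every list, and just outside it, from 2000 to under 2100 bp, 7 of 222 genes did. The genes nearest the limit with a peak in every list were Act79B, Mgstl, RpS3A and UQCR-C2 inside it and Yp3, Lst, RpL28 and CG33947 outside it.

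The short genes that recurred were a minority of those seen. A peak in all 3 lists was found in 238 short genes, which is 4.44% of those that could be tested (95% Wilson interval 3.92 to 5.03%, counting error only) against 13.5% of all genes. In longer genes it was found in 1391, or 20.8% (19.8 to 21.8%). Of the short genes with any peak, 37.2% were in every list, 96 genes were in 2 lists and 305 genes (47.7%) were in 1 list. Of the longer genes with any peak, 48.6% were in every list and 32.8% in 1 list. Most of the short genes seen in a single list, 263 of 305, came from list 1, which is the longest list, and 24 and 18 came from lists 2 and 3.

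Cytosolic ribosomal protein genes supplied more recurrent short genes than any other named family. Of 74 short genes of this family, 65 had a peak in every list (87.8%), which is 27.3% of the 238 recurrent short genes. They comprised 39 of 43 genes of the large subunit and 26 of 31 of the small subunit. RpS15Ab was in 2 lists, and 8 genes had no peak: RpS28-like, RpLP0-like, RpL37-2, RpL22-like, RpS5b, RpL10Aa, RpS19b and RpS28a. All 8 bear the name of a copy or paralog, but so do some of the 65, among them RpL24-like, RpS14b and RpL34a. The family held 175, 167 and 191 short-gene peaks. At these peaks the median CLIP reads per bin were 30, 71 and 18, against median input reads of 75.8, 66.8 and 67.2. In 57 of the 65 genes the highest peak lay below the ratio median of its list every time. The same held for 167 of all 238 recurrent short genes (70.2%), against 12.9% of the recurrent longer genes.

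**Figure D2:**
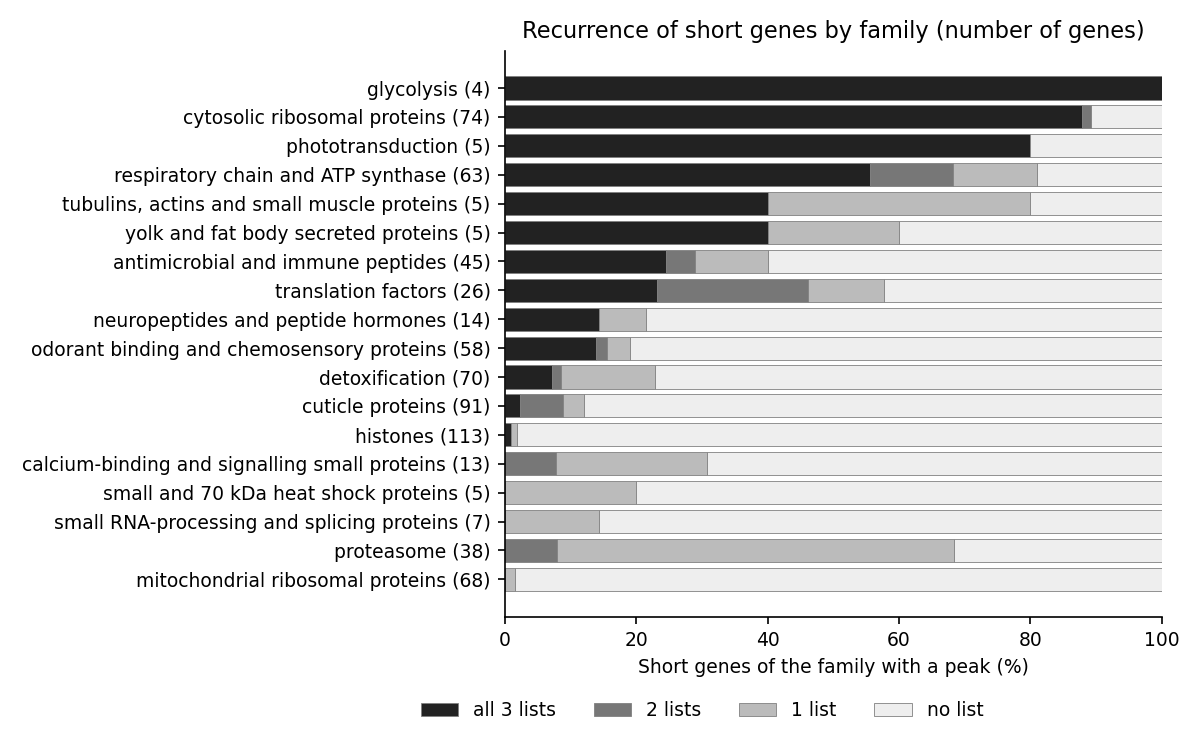
Share of the short genes of each named family (horizontal axis, percent; number of genes in brackets) with a peak in all 3, in 2, in 1 or in no list. Cytosolic ribosomal proteins had 65 of 74 genes in every list and mitochondrial ribosomal proteins 0 of 68, and the proteasome had 23 of 38 genes in a single list. The share in every list was 4.44% over all short genes.

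The plot of recurrence by family shows how unequal the families were. Over all short genes, 4.44% had a peak in every list and 11.9% had a peak in any list. The ribosomal protein genes of mitochondria differed from those of the cytosol: 0 of 68 short genes had a peak in every list. In a group of this size that is not far from the 4.44% of all short genes. Only mRpL36 had any peak (1.47%, against 11.9% of all short genes), and it was in 1 list. Its peak, in list 2, held 438 CLIP reads per bin over 5 input reads. Nuclear genes of the respiratory chain and ATP synthase had a peak in every list in 35 of 63 cases (55.6%), with 8 more in 2 lists and 8 in 1 list, all of these in list 1. ATP synthase had 9 of 11 genes in every list, complex IV 7 of 11, complex III 5 of 7, complex II 3 of 4 and complex I 11 of 30. Of the 12 without a peak, 11 carry the suffix L of a paralog, such as COX4L and ND-24L, and the other is ND-B8.

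Over the 238 recurrent short genes the highest peak held a median of 25.5, 53.1 and 15.4 CLIP reads per bin. The highest peak was taken in each list by itself, so in some genes it lay at different places in different lists. The highest peak of COX7C, a subunit of complex IV, held 31.5, 54.5 and 18.5 CLIP reads, against 31.9, 37.5 and 47.8 input reads. COX4 held 39.6, 44.6 and 16.8 CLIP reads, against 56.7, 53.8 and 69.3 input reads. UQCR-Q of complex III held 37.3, 47.3 and 19.3 CLIP reads, against 44.9, 62.8 and 74.0 input reads. All 3 genes were above the median of short genes in lists 1 and 3. COX4 and UQCR-Q had fewer CLIP than input reads in each list, and COX7C in lists 1 and 3.

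Proteasome genes were seen mostly in 1 list. None of 38 short genes had a peak in every list, 3 (Prosalpha4, Prosbeta7 and Rpt2) had one in 2 lists, and 23 had one in a single list, of which 19 were in list 1. In a group of this size, none in every list is not far from the 4.44% of all short genes. The family held 57 peaks in list 1, against 1 in list 2 and 6 in list 3. At the peaks of list 1 the medians were 8 CLIP and 7 input reads per bin, with the CLIP median at the lower quartile of short-gene peaks in that list, which was 8. Among translation factors, 6 of 26 short genes (23.1%) were in every list, against 4.44% of all short genes: eEF5, eEF1gamma, eEF1beta, eIF3m, eIF3h and eIF2beta. All 4 short glycolytic genes (Gapdh1, Gapdh2, Tpi and Pglym78) were in every list. Their highest peaks held 15.3 to 29.8 CLIP reads per bin in list 1, 33.5 to 55.6 in list 2 and 9 to 16 in list 3.

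Among genes that mark cell types of the head, the opsins recurred. ninaE, which encodes the main rhodopsin of the outer photoreceptors, spans 1952 bp of chromosome 3R from 19886255 to 19888206 (dm6). It had 4 peaks in every list, and its highest held 432, 1025 and 142 CLIP reads, against 840, 519 and 360 input reads. Only in list 2 did its CLIP reads exceed its input reads, and its ratio less the list median averaged -0.88 ± 0.26 (SD, n = 3 lists). These highest peaks did not lie at the same place, since that of list 1 was at the other end of the span from that of list 2. At the region shared by all lists, 19888001 to 19888200, the average was -0.94 ± 0.34. ninaE alone carried 10.6%, 15.5% and 9.30% of all CLIP reads in short-gene peaks.

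The opsins of other photoreceptors had fewer reads. Rh3 held 17.5, 57.3 and 15 CLIP reads per bin at its highest peak, against 45.8, 29.9 and 33 input reads. Rh5 held 14, 60 and 11.5 CLIP reads, against 24.0, 18.8 and 20 input reads. Rh2, the opsin of the ocelli, held 13, 50 and 8 CLIP reads, against 30.2, 22 and 32 input reads. These 3 had more CLIP than input reads in list 2 and fewer in lists 1 and 3, and Rh6 had no peak.

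Of 14 short neuropeptide and peptide hormone genes, 2 (14.3%) had a peak in every list, against 4.44% of all short genes. Nplp3, a neuropeptide-like precursor, held 277, 251 and 120 CLIP reads, against 232, 420 and 419 input reads. Nplp2 held 204, 240 and 69.3 CLIP reads, against 267, 311 and 347 input reads. CLIP reads exceeded input reads only for Nplp3 in list 1. Dsk was in 1 list, and 11 genes had no peak, among them Pdf, Akh, Crz, SIFa and the insulin-like peptide Ilp7. The family thus had any peak in 21.4% of its genes, against 11.9% of all short genes.

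Odorant binding and other chemosensory protein genes had a peak in every list in 8 of 58 cases (13.8%), against 4.44% of all short genes. They were EbpIII, Obp19d, Obp44a, Obp49a, Obp56d, Obp56e, Obp56g and Obp57c. Of 14 CheA and CheB genes 0 had a peak in every list, which in so small a group is not far from 4.44%. EbpIII held 116, 166 and 45.4 CLIP reads, against 220, 227 and 145 input reads. Obp44a held 46.5, 75.5 and 18.8 CLIP reads, against 55.6, 66.8 and 77.9 input reads. EbpIII had fewer CLIP than input reads in each list, and Obp44a in lists 1 and 3.

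Of 45 short antimicrobial and immune peptide genes, 11 (24.4%) had a peak in every list, against 4.44% of all short genes. Among them were 7 of 12 Bomanin (Bom) genes, which encode short peptides secreted after Toll activation. The Drosomycin group had 1 of 7 genes (Drsl5) and the peptidoglycan recognition protein genes 1 of 7 (PGRP-SB2). The other antimicrobial peptide genes had 1 of 12 (Dro) and the Tot genes 0 of 5. These groups are too small to be set apart from the share over all short genes. BomS6 held 55, 119 and 23 CLIP reads, against 109, 133 and 125 input reads. BomT3 held 33.4, 83.4 and 17.2 CLIP reads, against 32.0, 26.4 and 19.9 input reads. BomS6 thus had fewer CLIP than input reads in each list and BomT3 only in list 3. Several Bom genes are close copies of one another, and how reads with several matches were treated is not given in the sources used here.

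Over all short genes 4.44% had a peak in every list and 11.9% had any peak. Of 91 short cuticle protein genes, 2 (Cpr100A and Cpr65Au) had a peak in every list and 11 (12.1%) had any, with 0 of 15 Lcp genes and 0 of 18 Twdl genes in every list. Of 70 short detoxification genes 5 (7.14%) were in every list, namely GstD1, GstE12, MtnA, Sod1 and Cyp6a20. In a family of this size that count is not far from 4.44%. Any peak was found in 16 (22.9%), among them Sodh2, a sorbitol dehydrogenase gene that the symbol match placed here. Of 113 short histone genes only His4r was in every list, which is a histone gene outside the repeated cluster. Heat shock, small RNA-processing and small signalling protein genes had 0 of 5, 0 of 7 and 0 of 13. Of the remaining 4657 short genes, which belong to no named family, 91 (1.95%) had a peak in every list.

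Of 5 short yolk and fat body genes, 2 (Yp1 and Yp2) had a peak in every list, Obp99b was in 1 list, and fit and to had no peak. Of 5 short tubulin, actin and small muscle genes, 2 (Act79B and alphaTub84D) were in every list. Act42A and TpnC47D were in 1 list, and betaTub85D had no peak. Among all short genes 4.44% had a peak in every list and 11.9% had any peak, and 5 genes are too few to give a share for a family. The yolk protein gene Yp1 held 128, 323 and 62.0 CLIP reads, against 381, 241 and 234 input reads. Its neighbour Yp2 held 80.5, 172 and 38.1 CLIP reads, against 203, 134 and 132 input reads. Both had more CLIP than input reads in list 2 only, and the peaks of Yp2 were the widest in short genes, at 1350, 1400 and 1350 bp. The muscle actin gene Act79B held 38.8, 30 and 52.6 CLIP reads, against 9.82, 156 and 123 input reads, so that list 1 stood apart from the others at this gene. The highest peak of Yp1 overlapped an annotated antisense RNA, and the reads of a gene and of a partner on the other strand were not told apart here because the gene table gives no strand.

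Median reads at peaks differed between short and longer genes more in input than in CLIP. No short-gene peak held fewer than 7, 25 and 7 CLIP reads per bin in lists 1, 2 and 3. Such a lower bound limits how far the CLIP medians can differ, so their closeness is not a result by itself. The median CLIP reads per bin were 10, 43 and 11 at short-gene peaks and 9.5, 37 and 10 at peaks of longer genes, a log2 difference of 0.14 ± 0.07 (SD, n = 3 lists) that was 0.02 without the cytosolic ribosomal protein genes. The median input reads were 14, 43 and 35 at short-gene peaks, against 7.75, 9 and 9 in longer genes. This is 1.81-fold, 4.78-fold and 3.89-fold more input in short genes, a log2 difference of 1.69 ± 0.74, and the exact permutation test over lists gave p = 0.25. The median log2 ratio of CLIP to input was -0.39, 0.14 and -1.49 in short genes and 0.25, 1.95 and 0.17 in longer genes. Its difference was -1.37 ± 0.63 (exact permutation test over lists, p = 0.25), with short genes lower in each list.

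**Figure D3:**
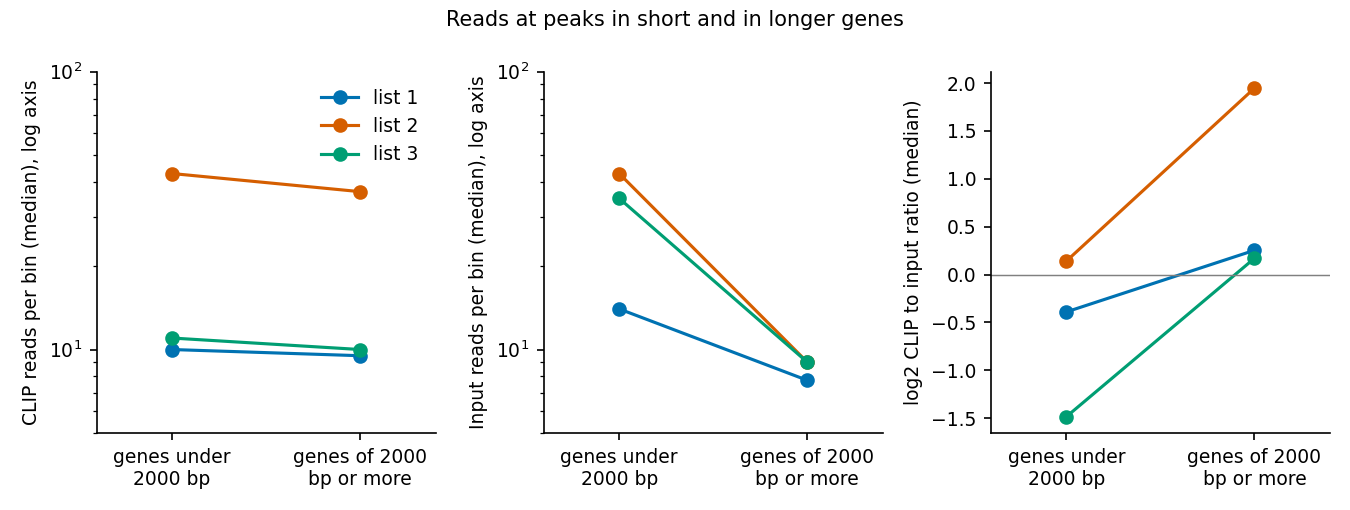
Median CLIP reads per bin, median input reads per bin (both on log axes) and median log2 CLIP to input ratio at peaks of genes under 2000 bp and of genes of 2000 bp or more, with 1 line for each list. CLIP medians lay close together (10, 43 and 11 against 9.5, 37 and 10), while input medians were higher in short genes (14, 43 and 35 against 7.75, 9 and 9). All short-gene peaks held at least 7, 25 and 7 CLIP reads per bin, which limits how far the CLIP medians can differ.

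Short-gene peaks lay more often at high input. In short genes 47.0%, 66.7% and 55.7% of the peaks lay in the upper quartile of input reads of their list, against 22.4%, 20.0% and 19.8% of the peaks of longer genes. Within that quartile the median log2 ratio ranged from -1.90 in list 3 to -0.14 in list 2 in short genes and from -1.89 to -0.16 in longer genes, and the mean difference within quartiles was -0.08. Input is the divisor of the ratio, so holding input alike narrows the ratio difference in part by construction. The cause of the difference was not tested. Compared with genes from 2000 to under 5000 bp only, the difference was -0.31 in log2 ratio and 0.60 in log2 input.

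Many short-gene peaks had fewer CLIP than input reads. This held for 888 of 1365 peaks in list 1 (65.1%), 268 of 643 in list 2 (41.7%) and 719 of 799 in list 3 (90.0%). In longer genes it held for 40.5%, 13.2% and 47.1%, and over all single-gene peaks for 43.1%, 16.3% and 53.3%. The short genes lay 32.0 ± 9.65 percentage points above the longer ones. Since CLIP and input reads are not scaled to the size of their libraries, this count does not show whether a region was enriched.

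Peaks were fewer per gene in short genes. Genes with a peak had 2.34, 2.21 and 2.37 peaks in the short class and 4.23, 2.95 and 2.83 in the longer class. The means were 2.31 ± 0.09 and 3.34 ± 0.78 (SD, n = 3 lists), and the difference, -1.03 ± 0.76, was -0.60 without list 1. A shorter span holds fewer bins and so fewer possible peaks, so part of this difference is set by the rule for the classes. A single peak was found in 222, 109 and 119 short genes, and 4 or more in 101, 45 and 65. The median share of the span under peaks was 16.5%, 23.8% and 20.6% in short genes. It is not compared with longer genes, since the span that defines the classes is the divisor.

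Some short genes lay almost wholly under 1 peak. CG8343 had 1 peak over 99.0% of its span in every list, CG11458 1 peak over 98.9%, RpLP2, an acidic ribosomal stalk protein, 1 over 96.4%, and CG17108 1 over 95.4%. At least 50% of the span was under peaks in every list in 47 of the 238 recurrent short genes (19.7%). For CG11458 the peak held 192, 205 and 69.7 CLIP reads, against 81.9, 134 and 90.0 input reads. Its CLIP reads exceeded input in lists 1 and 2. CG17108 held 55.6, 187 and 36.5 CLIP reads, against 131, 65.1 and 64.9 input reads, with CLIP above input in list 2 only.

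Of the 8 short genes with the most peaks, eEF1gamma, RpS20 and RpL14 act in translation and UQCR-C2 and ATPsyngamma in mitochondria. eEF1gamma, a subunit of the elongation factor complex, had 8, 8 and 10 peaks in 1938 bp. UQCR-C2, a core subunit of complex III, had 10, 3 and 6, Cyt-b5-r 4, 6 and 8, and RpS20 6, 5 and 6. The highest peak of eEF1gamma held 23.9, 70.5 and 19 CLIP reads, against 52.4, 40.7 and 50 input reads. Across the 238 recurrent short genes, the Spearman correlation of the number of peaks with the span was 0.38, 0.12 and 0.29, a description over genes of the same libraries.

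Peaks were spread along short spans. Read along the strand of the peak, the first 20% of the span held 17.7%, 15.7% and 18.1% of short-gene peaks, against 31.5%, 40.8% and 38.9% of peaks in longer genes. The means were 17.2 ± 1.29% and 37.1 ± 4.94%, a difference of -19.9 ± 5.71 percentage points (exact permutation test over 3 lists, p = 0.25). The last 20% held 23.5%, 20.1% and 18.6% of short-gene peaks, against 31.8%, 23.0% and 24.5% in longer genes. The median midpoint lay at 56.2%, 54.4% and 53.0% of short spans and at 57.2%, 37.6% and 41.9% of longer spans. Short genes were higher by 8.96 percentage points on average, lower in list 1 and higher in lists 2 and 3, and 13.9 points higher without list 1 but 5.04 without list 2. Against genes from 2000 to under 5000 bp alone the direction turned, with a difference of -6.51 points. The bin of 50 bp limits this measure in the shortest genes. An equal share of the span also holds fewer bases in a short gene. A peak that covers most of a short span has its midpoint near the centre, which lowers the shares at both ends.

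**Figure D4:**
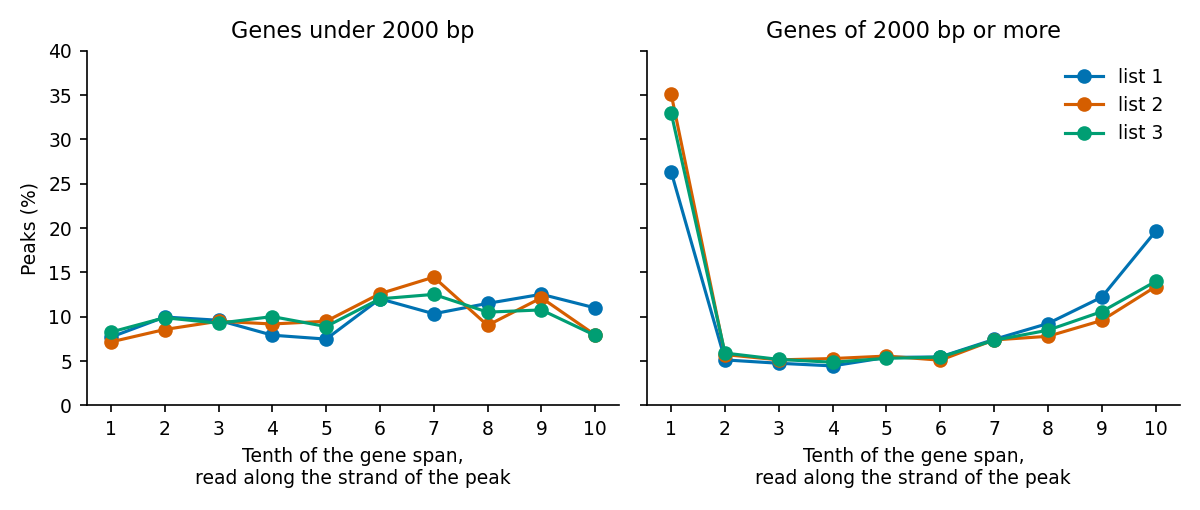
Share of peaks (vertical axis, percent) in 10 equal parts of the gene span (horizontal axis, read along the strand of the peak) in genes under 2000 bp and in genes of 2000 bp or more, with 1 line for each list. The first of them held 7.69%, 7.15% and 8.26% of short-gene peaks, against 26.3%, 35.1% and 33.0% in longer genes.

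Overlap between lists was more frequent at peaks with many reads. A peak on the same strand, sharing at least 1 bp, was found in both other lists for 413 short-gene peaks of list 1 (30.3%), 476 of list 2 (74.0%) and 498 of list 3 (62.3%). The shares over all single-gene peaks were 23.2%, 54.2% and 64.0%. In longer genes they were 22.3%, 51.8% and 64.3%. The difference averaged 9.41 ± 12.2 percentage points, less than its spread (exact permutation test over lists, p = 0.5), and it was 2.96 without list 3, 2.17 without ribosomal protein genes and 2.80 in 1-bin peaks. In the upper quartile of CLIP reads 82.1%, 87.4% and 91.3% of short-gene peaks were shared, against 69.4%, 74.0% and 81.1% in longer genes, and in the lowest quartile 0%, 39.3% and 21.8%, against 0.727%, 26.1% and 40.2%. Compared within quartiles of input reads, the mean difference turned to -9.59 points. Short-gene peaks of 1 bin made up 51.0 ± 4.18% of the class, against 62.5 ± 3.13% in longer genes, a difference of -11.5 points that was -5.13 without ribosomal protein genes.

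The regions found in all 3 lists numbered 526 in 220 short genes and covered 76750 bp. Their median width was 100 bp, against 50 bp for the 3124 regions of longer genes. The ratio of CLIP to input lay below the list median in every list at 440 of them (83.7%) and above it in every list at 16 (3.04%). In longer genes it lay below at 1043 (33.4%) and above at 1701 (54.4%). Over the 238 recurrent short genes, the Spearman correlations between pairs of lists were 0.75 to 0.82 for the highest CLIP reads and 0.80 to 0.84 for the input reads at the same peaks, but 0.29 to 0.51 for the ratio. CLIP and input reads correlated at 0.77, 0.68 and 0.70 within lists. These describe genes of shared libraries, and the part of transcript level in the CLIP reads was not tested.

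**Figure D5:**
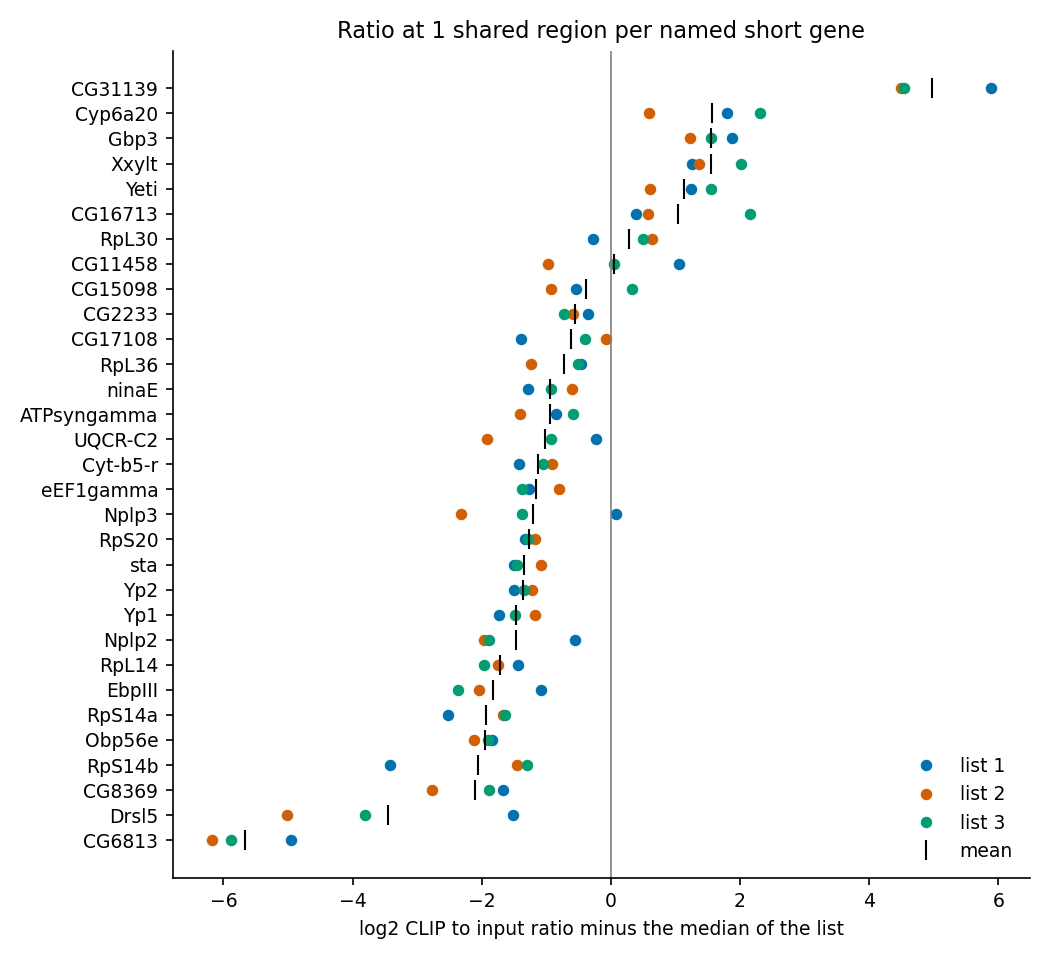
Log2 CLIP to input ratio less the median of the list (horizontal axis) at 1 region shared by all 3 lists for each named short gene (vertical axis), with 1 point for each list and a bar at the mean. CG31139 stands at 4.97 and CG6813 at -5.67, and the other genes lie between -2.11 and 1.56 except Drsl5 at -3.45.

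The plot of ratios at named regions shows which short genes departed from this pattern. CG31139 had a single bin, at 22747951 to 22748000 of chromosome 3R on the minus strand, with 132, 471 and 86 CLIP reads, against 1, 6 and 4 input reads. Its log2 ratio was 5.42 ± 1.12, or 4.97 ± 0.79 above the list median (SD, n = 3 lists), and the bin was the same in each list. The next genes were Cyp6a20, a cytochrome P450, at 1.56 ± 0.88 above the list median, Gbp3, a growth-blocking peptide, at 1.55 ± 0.33, and Xxylt, a xylosyltransferase, at 1.55 ± 0.41. At the region of Gbp3 there were 17.5, 34 and 10 CLIP reads, against 3.46, 4 and 4 input reads. At that of Xxylt there were 18, 52.7 and 20 CLIP reads, against 6.08, 5.94 and 5.92 input reads. In these genes CLIP reads exceeded input reads in each list. With so few input reads the ratios depend on the pseudocount, and with 10 in place of 1 they were 0.65 for Cyp6a20, 0.75 for Gbp3, 0.92 for Xxylt and 3.48 for CG31139 above the list median.

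At the other end CG6813 had a single bin, at 11626051 to 11626100 of chromosome 3R on the minus strand, with 92, 40 and 12 CLIP reads, against 2552, 990 and 1025 input reads. Its ratio lay 5.67 below the list median (-5.67 ± 0.64). Drsl5 followed at -3.45 ± 1.78, where 14.7, 27 and 12 CLIP reads per bin stood against 38.9, 301 and 241 input reads. CG8369 stood at -2.11 ± 0.58 and Obp56e at -1.95 ± 0.14. RpS14b and RpS14a, neighbouring genes for the same ribosomal protein, stood at -2.06 ± 1.18 and -1.94 ± 0.50, and reads that match both cannot be placed with certainty.

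In lists 1 and 2 the largest number of CLIP reads per bin at a short-gene peak was at PGRP-SB2. In list 3 it was 142, at ninaE. PGRP-SB2, a peptidoglycan recognition protein gene on chromosome 3L, had the same bin in each list, at 16726951 to 16727000 on the plus strand. This bin held 4264, 5690 and 19 CLIP reads, against 540, 188 and 225 input reads. Lists 1 and 2 thus had far more CLIP than input reads there and list 3 far fewer. RpL30 held 105, 569 and 122 CLIP reads per bin at its highest peak, against 113, 121 and 115 input reads, with CLIP above input in lists 2 and 3. This peak overlaps an annotated small nucleolar RNA, whose reads were not told apart from those of the gene.

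Short genes with a strong peak in a single list were also found. In list 2, bdwf held 301 CLIP reads over 2 input reads, Hsp26, a small heat shock protein, 180 over 6, and CG8209 154 over 5. In list 1, Gmd, a GDP-mannose dehydratase, held 59 CLIP reads over 8 input reads, and CG4709 held 60 CLIP reads, against 2112 input reads. Each of these 5 was 1 bin wide and absent from the other lists. A further set was picked after its values were seen. ScsbetaG, a subunit of succinyl-CoA synthetase, held 1713 and 122 CLIP reads in lists 1 and 2 over 1 and 3 input reads and had no peak in list 3. Edg84A, a cuticle protein, held 848 and 14 CLIP reads in lists 2 and 3 over 2 and 1 input reads and had none in list 1. Cp18, an eggshell protein, held 209 and 73 CLIP reads in lists 2 and 3 over 5 input reads each. Large counts over almost no input were thus found in short genes without recurring in every list.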

How the data were processed

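The submitters deposited 1 peak list per CLIP library and its input, without pooling and without a header. The processing notes of the submitters name STAR 2.7.5a and the builds dm6 and BDGP6 with no role. Peak caller, thresholds and filters are not given in the sources used here. The deposited signal was read as mean CLIP reads per 50 bp bin, because it is whole in 1-bin peaks. The deposited natural log was read as that of input reads per bin. The deposited p-value was used only to rank peaks. That these count CLIP and input reads was inferred from the values and list names.

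Gene spans came from the RefSeq table of Release 6. All 3 lists were used, 0 columns of no sample were left out, and coordinates are 1-based. Ratios are log2 of CLIP over input, each plus a pseudocount of 1. Values were computed per list with Python 3.11.15, pandas 2.3.3 and scipy 1.17.1 and tested on simulated data. The list is the block because both length classes come from the same list. The labels call the samples biological replicates, and p-values measure only the spread between them. Intervals cover counting error only.

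Named were the 12 genes ranking best by CLIP reads, the 8 with most peaks, the 6 highest and 6 lowest shared ratios, up to 4 per family, the 4 on each side of the limit and the 6 best of a single list. Families were matched by symbol. Members and lists were chosen with earlier results of these data known.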

Additional observations from a re-analysis of the deposited data

How the results depend on the processing

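Alternatives were other span limits, the lowest 50% of p-values in a list, peaks wholly inside the span, peaks in non-coding spans left out, other pseudocounts, reciprocal overlap of 50%, longer genes from 2000 to under 5000 bp, quartiles of input reads and each list left out. Added after seeing the data were 1-bin peaks alone, ribosomal protein genes left out and ratios within input quartiles. Differences between classes were judged by direction alone, except that in recurrent share, which was also judged by size. Counts were judged by a limit of 1.5 times, and shares and single regions by 1 SD between lists. By these limits 137 comparison values were kept, 7 moved and 4 reversed, and 143 values of single regions were kept, 11 moved, all of them with a pseudocount of 10, and 1 reversed. The share of single-gene peaks in short genes, 11.9%, was 8.12% with a limit of 1500 bp, 15.7% with 2500 bp and 9.41% without ribosomal protein genes. With the lowest p-values alone, peaks per list averaged 506, against 936 in the full lists, recurrent short genes numbered 154 and the difference in recurrent share was -7.58 points, against -16.3 in the full lists. Against genes from 2000 to under 5000 bp that difference was -2.83, and the position difference turned to -6.51. Within input quartiles the overlap difference turned to -9.59, and the log2 CLIP difference to -0.010, as it did in 1-bin peaks alone (-0.013). Several differences kept their direction but changed by over 1.5 times. Against genes from 2000 to under 5000 bp the log2 ratio difference was -0.31, that of input 0.60, of CLIP 0.22, of peaks per gene -0.58 and of genes with a peak -6.26 points. With the lowest p-values, peaks per gene differed by -0.41, overlap by 17.1 and position by 18.7 points. Without ribosomal protein genes, CLIP differed by 0.02, overlap by 2.17 points and 1-bin peaks by -5.13 points. Overlap was 3.86 within CLIP quartiles and 2.80 in 1-bin peaks. The ratio difference was -0.88 with a pseudocount of 10 and -0.08 within input quartiles. Without list 1 peaks per gene differed by -0.60 and position by 13.9 points, without list 2 position by 5.04, and without list 3 overlap by 2.96. The causes were not tested. The region of CG11458 ranged from -0.46 to 0.55 when 1 list was left out.

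With the list as a block the smallest p was 0.25. Without the replicate block, pairing ignored, the values were the same, such as -23.2 points for the share of genes with a peak, and the exact permutation p was 0.1, the smallest possible, for input reads, ratio, peaks per gene and share of genes, 0.6 for CLIP reads and overlap and 0.4 for position.

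Library depth is unknown, and absence from a list does not show absence of the mark.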

Other observations

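Some recurrent short genes outside the named families, picked here after their values were seen, mark the eye or growth control. retinin, a protein of the corneal lens, held 75.9, 103 and 27.1 CLIP reads per bin at its highest peak, against 132, 141 and 119 input reads, and 94.2%, 86.2% and 94.2% of its span lay under peaks. Pdh, a retinal pigment cell dehydrogenase of the visual cycle, held 52.3, 90.8 and 28 CLIP reads, against 123, 125 and 87.9 input reads. Both had fewer CLIP than input reads in each list. Thor, a translation repressor that binds the cap-binding factor and is a target of insulin signalling, had 3, 3 and 5 peaks. Its highest held 16.8, 55 and 10 CLIP reads, against 27.6, 44 and 31 input reads, so that CLIP exceeded input in list 2 only. Rack1, a ribosome-associated scaffold protein, held 35.3, 81 and 21 CLIP reads, against 72.2, 77.6 and 63.9 input reads. Tctp, a growth regulator, held 30.3, 62.1 and 23 CLIP reads, against 72.8, 58.5 and 78 input reads. At both genes CLIP exceeded input reads in list 2 alone.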
